A study of Rattus norvegicus with 4 samples.

Results

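The enzymes of phase I and phase II metabolism were followed in machine-perfused rat kidneys. They were chosen by gene name as the cytochrome P450 enzymes (Cyp), the UDP-glucuronosyltransferases (Ugt), the glutathione S-transferases (Gsta, Gstm, Gstp, Gstt, Gstk, Gsto and the microsomal Mgst) and the sulfotransferases (Sult). Of 103 such genes with a probe set of their own on the array, 47 lay above the floor on at least 1 array; the floor is a log2 value of 4.51, the 50th percentile of the whole table. They were 47 of the 9393 genes that met this condition, and 45 of them were above the floor on all 4 arrays. The members nearest to that limit from the inside were Sult1c3, Cyp4f17 and Cyp4b1, with highest values of 4.81, 5.09 and 5.20, and from the outside Cyp2j3, Cyp21a1 and Ugt2b7, with 3.82, 3.11 and 2.95.

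Phase I enzymes, mainly the P450s, oxidise drugs, steroids, fatty acids and vitamins, and phase II enzymes attach glucuronic acid, glutathione or sulfate to such products so that they can be excreted. In the kidney most of this work is done in the proximal tubule, which takes up organic anions and cations from blood. Renal P450s of the Cyp2c, Cyp2j and Cyp4 families also turn arachidonic acid into epoxides and hydroxylated products that act on vessel tone and salt transport.

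All donors were male Wistar rats of 300 to 480 g, whose age the labels do not give, and every group shared 29 min of primary warm ischaemia after death, a flush and 3 h of machine perfusion of the left kidney with cold University of Wisconsin preservation fluid. The cold group ended there, and the warm group went on to 30 min of perfusion with warm Krebs-Henseleit buffer, modified and oxygenated, which holds no blood. The heparin and PPS groups were perfused as the warm group, with low molecular weight heparin or PPS (named in the labels by this abbreviation) at 10 IU/ml in both perfusates. For each group RNA of 3 kidneys, those with the best RNA quality, was pooled on 1 array. No comparison of 2 arrays therefore has a spread between replicates or a p-value, and a gene was counted as higher or lower from a 2-fold difference (a log2 difference of 1).

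The arrays had close median log2 values, from 4.50 to 4.54. For 24 poly-A control probe sets, which read bacterial transcripts added to the RNA, the median difference was 1.25 in warm minus cold, and the 3' to 5' difference of beta-actin, a measure of RNA quality, was 2.79 on the cold array against 3.19 to 3.39 on the others. Proximal tubule markers were above the floor for 15 of 16 genes, whereas all 6 liver and all 9 adrenal markers on the array were at or below it on all 4 arrays. The P450s of steroid synthesis Cyp11a1, Cyp11b1, Cyp17a1, Cyp19a1 and Cyp21a1 were likewise below the floor. So were all 4 Cyp3a genes, Cyp1a2, Cyp1b1 and Cyp27b1, which makes active vitamin D. Of the 56 enzyme genes left out for low values, 39 held exactly the lowest value of the table (2.11) on all 4 arrays.

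Promoter sequences are shown for 5 of the 6 enzymes that differed by at least 2-fold between any 2 arrays, as described below; the other, Cyp1a1, had none in the table. They come from RefSeq (build GRCr8), whose promoter table held 41 of the 47 genes (not Cyp1a1, Cyp4a1, Cyp4f17, Cyp4v3, Gstt1 and Gstt2). Each sequence is the 250 bases before the annotated start, 5′ to 3′ on the gene's strand. Capitals mark matches, on either strand, to GCGTG (the core bound by the aryl hydrocarbon receptor), TGACNNNGC (the antioxidant response element bound by NRF2) and TGANTCA (the AP-1 site); the last of these can share bases with the antioxidant element. The windows lie at chr4:118616177-118616426 (reverse strand), chr9:31154739-31154988 (forward strand), chr2:198260320-198260569 (reverse strand), chr14:21208191-21208440 (forward strand) and chr1:246174966-246175215 (forward strand).
Cyp26b1: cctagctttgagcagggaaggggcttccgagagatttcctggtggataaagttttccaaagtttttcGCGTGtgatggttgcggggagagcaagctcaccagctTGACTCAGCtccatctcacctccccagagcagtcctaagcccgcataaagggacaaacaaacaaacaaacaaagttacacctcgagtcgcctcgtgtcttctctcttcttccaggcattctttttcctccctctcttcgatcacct
Gsta3: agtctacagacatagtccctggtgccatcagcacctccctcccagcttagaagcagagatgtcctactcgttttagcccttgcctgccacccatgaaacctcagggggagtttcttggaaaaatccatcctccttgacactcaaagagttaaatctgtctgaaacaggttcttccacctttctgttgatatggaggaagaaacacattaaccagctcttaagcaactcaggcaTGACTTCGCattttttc
Gstm7: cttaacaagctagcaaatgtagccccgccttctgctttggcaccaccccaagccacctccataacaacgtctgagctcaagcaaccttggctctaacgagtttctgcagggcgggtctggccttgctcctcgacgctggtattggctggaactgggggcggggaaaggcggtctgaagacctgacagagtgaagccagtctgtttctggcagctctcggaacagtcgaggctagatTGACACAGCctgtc
Ugt2b35: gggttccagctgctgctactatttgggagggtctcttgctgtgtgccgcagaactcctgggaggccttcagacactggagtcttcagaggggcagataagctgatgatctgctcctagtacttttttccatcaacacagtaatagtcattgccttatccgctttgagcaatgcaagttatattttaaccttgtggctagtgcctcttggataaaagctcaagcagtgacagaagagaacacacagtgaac
Cyp2c11: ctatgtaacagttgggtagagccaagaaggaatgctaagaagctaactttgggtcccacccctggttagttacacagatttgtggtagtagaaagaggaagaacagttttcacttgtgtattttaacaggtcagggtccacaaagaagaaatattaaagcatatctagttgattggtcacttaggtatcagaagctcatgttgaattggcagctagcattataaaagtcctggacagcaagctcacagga

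The Cyp26b1 window held all 3 motifs, and its antioxidant and AP-1 matches share bases 146 bases before the start. Gsta3 and Gstm7 had an antioxidant match 17 and 14 bases before their starts. A further annotated start of Gsta3 had a GCGTG match in its own window, 233 bases before it. The Ugt2b35 and Cyp2c11 windows held none of the 3 letter patterns. Over the 42 windows of the enzymes, 33.3% held GCGTG, 16.7% TGACNNNGC and 7.14% TGANTCA, against 25.9%, 10.1% and 6.34% of all 33469 windows in the table. These matches describe letters and were not tested as binding sites.

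Warm perfusion was used in the study to imitate transplantation after cold storage. Among the enzymes, Cyp26b1 and Gsta3 were more than 2-fold higher on the warm array, and no enzyme was 2-fold lower. That is 2 of 47, where 3.64% of all 9393 genes passed the limit (2.48% higher, 1.16% lower). The median log2 difference of the enzymes was -0.04, beside -0.0032 over all genes, with 21 above and 24 below 0. Differences of at least 0.5 on the log2 scale in either direction were found for 14 enzymes, or 29.8%, beside 14.2% of all genes. The median absolute difference was 0.34 for the enzymes and 0.17 for all genes.

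Cyp26b1, which breaks down retinoic acid, had log2 values of 6.34 in cold, 8.0 in warm, 7.27 in heparin-treated and 7.67 in PPS-treated kidneys. In what follows, 4 values given together are in this order. All 3 warm-perfused arrays were above the cold array, and the warm array stood 3.16-fold above it. A further probe set of this gene held the lowest value of the table on all 4 arrays, and the log2 difference was 0.54 when both were averaged. The averaged cold value lay below the floor and was raised to it, so 0.54 is a lower bound. The glutathione transferase Gsta3, an alpha class enzyme, was at 7.90 in cold kidneys and at 8.98, 9.12 and 8.78 in the other groups. It was 2.12-fold higher on the warm array, and again the cold array was the lowest of the 4. Scaled to the poly-A controls, warm minus cold differences fell by 1.19, which left 0.47 for Cyp26b1 and -0.11 for Gsta3; the part of the control difference in these results was not tested.

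**Figure D1:**
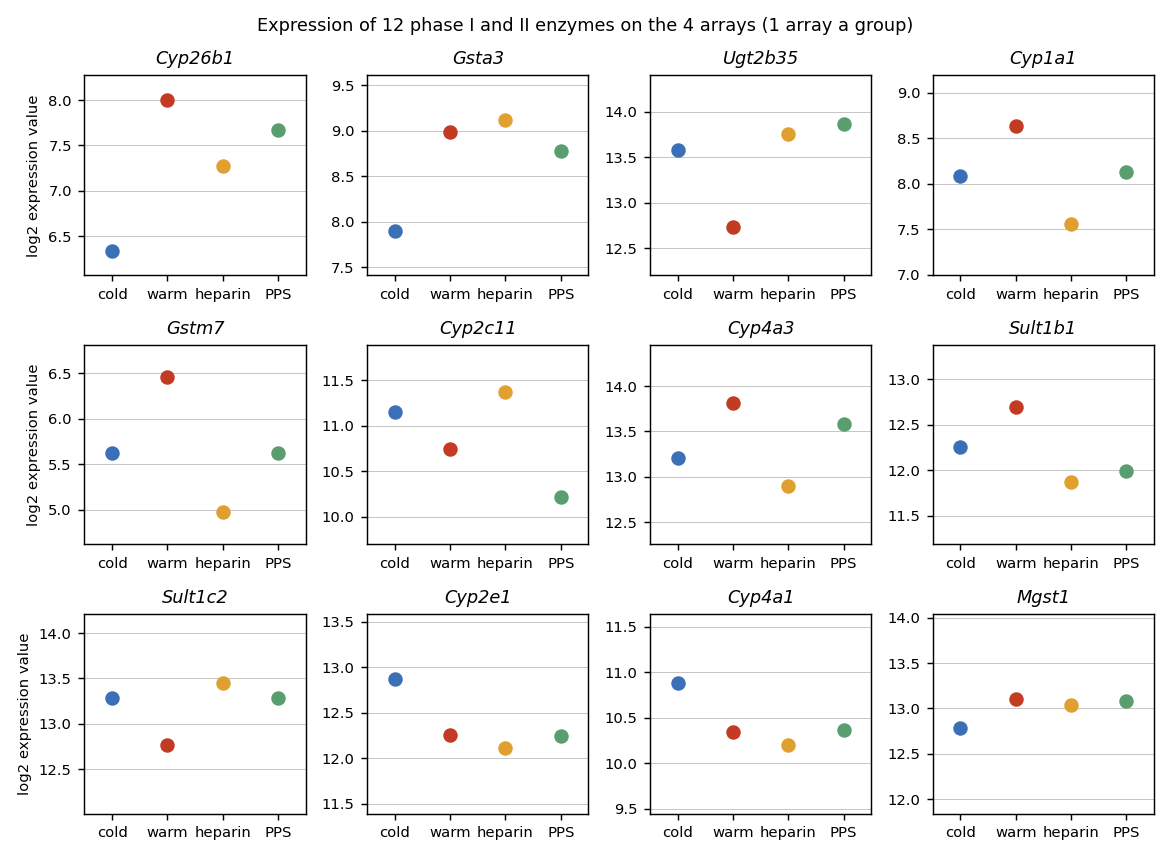
Log2 expression values (y axis) of 12 enzymes on the cold, warm, heparin and PPS arrays (x axis), 1 point for each array of pooled RNA, with no error bars because each group has 1 array; every panel spans the same number of log2 units around its own centre. Gsta3 and Cyp26b1 were lowest on the cold array (7.90 and 6.34), Ugt2b35 was lowest on the warm array (12.73), and Cyp2e1 and Cyp4a1 were highest on the cold array (12.87 and 10.88).

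The supplemented arrays were also set against the cold array. Gsta3 was 2.33-fold higher with heparin than in cold kidneys, 1 of 47 enzymes past the limit, where 2.09% of all genes passed (1.17% higher, 0.916% lower). Cyp26b1 was 2.51-fold higher with PPS than in cold kidneys, again 1 of 47, where 1.82% of all genes passed (1.03% higher, 0.788% lower). A log2 difference of at least 0.5 was found for 10 enzymes in each, beside 9.42% of all genes for heparin and 9.48% for PPS.

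To set these differences against a spread, the cold array was compared with the range of the 3 warm-perfused arrays, which differ in their supplements. The cold value lay outside that range for 27 of 47 enzymes. The warm-perfused arrays were higher for 12 of them and lower for 15, where 28.9% and 33.0% of all genes were so placed. The gap exceeded the width of the range for 5 higher and 8 lower enzymes, beside 11.4% and 13.9% of all genes. A limma fit that set the cold array against the other 3 called 0 of 47 enzymes at a Benjamini-Hochberg adjusted p under 0.05 (1 of 9393 genes, 0.0106%), and the lowest adjusted p of an enzyme was 0.21. At an unadjusted p under 0.05 it found 12 enzymes, or 25.5%, beside 16.2% of all genes. Its residual holds the supplements' effects, and the lone cold array was taken to vary like the others.

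Of the 8 enzymes lower by such a gap, 6 were P450s, where P450s made up 23 of all 47 enzymes. Cyp26b1 and Cyp51, among the 5 enzymes higher by such a gap, are P450s too. Whether P450s were lower more often than the other enzymes was not tested. Cyp2e1, which oxidises ethanol and other small molecules, was at 12.87 on the cold array and between 12.11 and 12.26 on the other arrays, and the mean of the 3 was lower by 0.66 ± 0.09 (standard error of the limma fit, adjusted p = 0.21). Cyp4a1, a fatty acid hydroxylase, was at 10.88 against 10.20 to 10.36 (-0.58 ± 0.09, limma adjusted p = 0.21). Cyp2c23, the main arachidonic acid epoxygenase of rat kidney, was at 14.63 against 14.24 to 14.33 (-0.33 ± 0.07, limma adjusted p = 0.23). Cyp2e1, Cyp4a1 and Cyp2c23 were picked from the enzymes whose gap to the cold array was wider than the range among the warm-perfused arrays. That gap is therefore no further support, and no adjusted p of these 3 genes passed the threshold.

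Cyp2d4 (7.59 on the cold array, 6.91 to 7.23 on the others) and Cyp2t1 (7.15 against 6.54 to 6.78) were placed alike. Cyp2d4 had a further probe set above the floor, with a warm minus cold difference of -0.48 beside -0.68 for the one analysed. That further probe set was at 6.45, 5.97, 6.23 and 6.62. Its PPS value lay above its cold value, so it was not placed alike. Cyp4b1, a P450 that activates some lung toxins, was at 5.20 on the cold array and below the floor on the other 3, so that it was at least 1.61-fold lower on the warm array; without the floor the log2 difference was -1.13, past the 2-fold limit. Gstm4 was at 8.27 on the cold array and between 7.92 and 7.94 on the others, and the microsomal transferase and peroxidase Mgst3 was at 13.78 against 13.34 to 13.47. Of the proximal tubule markers, 13 of 15 were lower on the warm than on the cold array, 1 of them past the limit, with a median of -0.23. The log2 of their summed level was 18.11 on the cold and 17.93 to 18.01 on the other arrays. Collecting duct markers had a median of 0.68 in warm minus cold, with 9 of 9 above 0, and all 9 markers of smooth muscle, pericytes and fibroblasts were lower (median -1.29). Of these 3 lists, 1 proximal tubule gene was below the floor on all 4 arrays and all other markers were above it on at least 1. The summed log2 level of the collecting duct list was 14.3 on the cold and 14.1 to 14.6 on the other arrays, and that of the smooth muscle list 13.2 and 11.9 to 12.9. Their part in the enzymes' differences was not tested, and fewer tubule cells cannot be told apart from less RNA per cell in whole-kidney RNA.

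Other enzymes were higher on all 3 warm-perfused arrays. Mgst1, a microsomal transferase that protects membranes, was at 12.78 on the cold array and between 13.04 and 13.10 on the others (0.29 ± 0.05, limma adjusted p = 0.22). Cyp51, the lanosterol demethylase of cholesterol synthesis, was at 9.34 against 9.63 to 9.79, and a further probe set of this gene was at 7.82, 8.18, 7.85 and 8.30. Sult2b1, which sulfates cholesterol and other hydroxysteroids, was at 7.32 against 7.69 to 7.94, with a further probe set at 7.07 on the cold array and 7.19 on each of the others. For the analysed probe sets of these 3 genes, as for those of Gsta3 and Cyp26b1, the gap was wider than the range among the warm-perfused arrays. The further probe set of Cyp51 did not show this, and that of Cyp26b1 was at the lowest value on all 4 arrays. As for the lower enzymes above, genes were set out here by that gap, so it is no further support. The standard error of Mgst1 rests on the same narrow range.

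**Figure D2:**
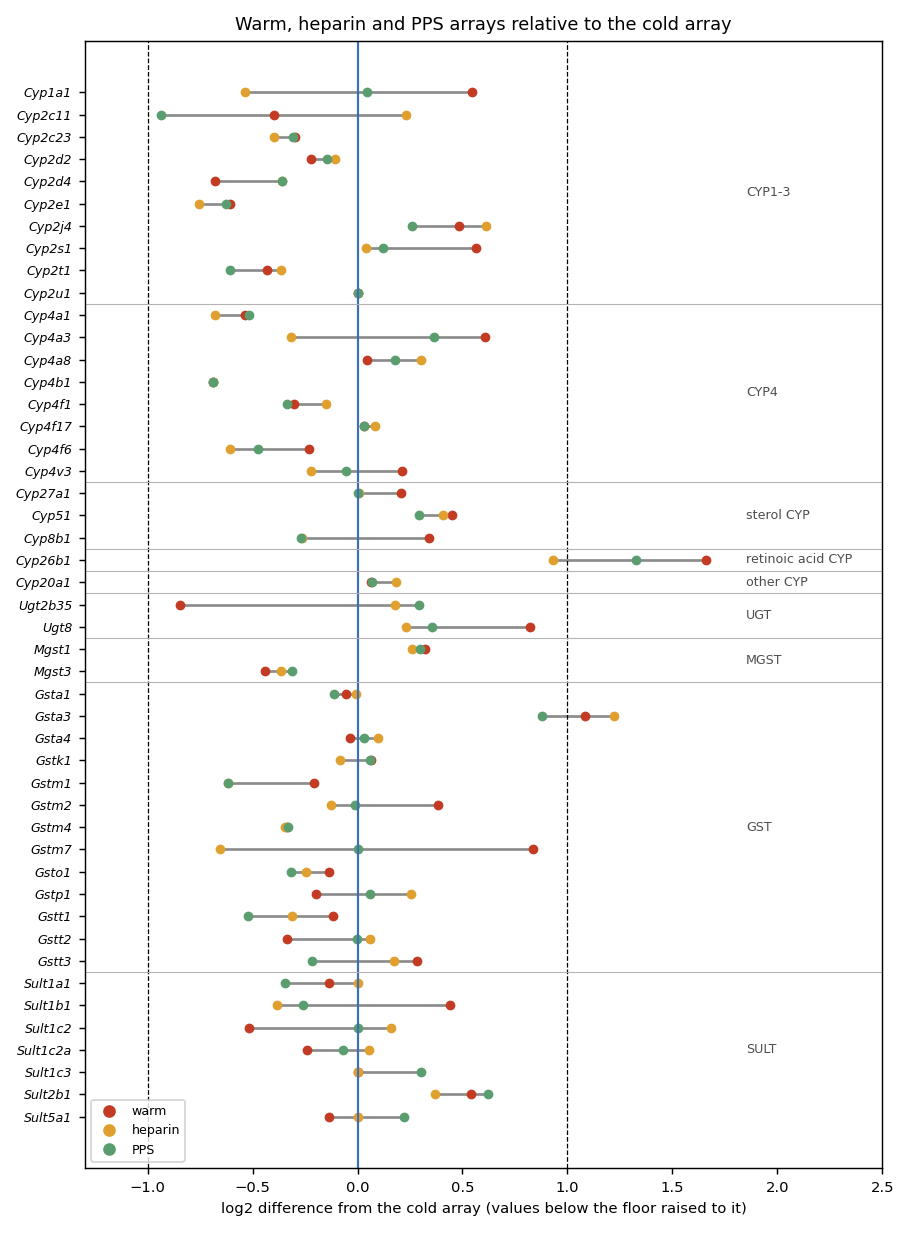
Log2 difference of the warm, heparin and PPS arrays from the cold array (x axis) for the 47 enzymes (rows, by enzyme group), with values below the floor raised to it. The blue line is the cold array, the grey bars join the lowest and highest warm-perfused array, and the dashed lines mark 2-fold; Cyp26b1 and Gsta3 are the enzymes with warm points beyond the dashed line.

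Heparin and PPS were added in the study to test their anti-inflammatory properties. Gstm7 and Cyp1a1 were more than 2-fold lower on the heparin array than on the warm array, and Ugt2b35 was more than 2-fold higher. These are 3 of 47 enzymes, where 1.86% of all genes passed the limit (0.383% higher, 1.48% lower). The median of the enzymes was -0.0069, beside 0 over all genes, and 12 enzymes (25.5%) differed by at least 0.5 on the log2 scale, beside 7.85% of all genes.

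With PPS, 1 enzyme passed the limit against warm, Ugt2b35 (higher), where 2.23% of all genes passed (0.511% higher, 1.71% lower). The median was -0.03, beside 0 over all genes. A log2 difference of at least 0.5 was found for 7 enzymes, or 14.9%, beside 7.08% of all genes. The differences of heparin and of PPS from warm share the warm array, so they are given side by side and are not independent of each other, nor of warm minus cold. Cell type markers differed here too: the collecting duct list had a median of -0.52 with heparin and -0.48 with PPS against warm, the smooth muscle list 0.37 and 0.78, and the proximal tubule list -0.0023 and 0.09. Their part in the enzymes' values was not tested.

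Ugt2b35, a glucuronosyltransferase of the family that conjugates steroids and drugs, was at 13.58, 12.73, 13.76 and 13.87. The warm array was the lowest of the 4, with a warm minus cold difference of -0.84, and the heparin and PPS arrays stood 2.04-fold and 2.20-fold above it. Scaled to the poly-A controls the heparin minus warm difference was 0.94, under the limit. Among the 9 Ugt genes with a probe set of their own, 8 belong to family 2, and Ugt2b35 was the 1 of these above the floor. None of the 9 belongs to family 1, so that family was not read here. Probe sets with several symbols were left out, and these were not checked for family 1. Ugt8, which builds galactosylceramide and is no drug-conjugating enzyme, was at 5.94, 6.77, 6.17 and 6.30, with the warm array the highest. A further probe set of Ugt8 held the lowest value of the table on all 4 arrays.

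Cyp1a1, the P450 induced through the aryl hydrocarbon receptor, was at 8.09, 8.63, 7.55 and 8.13. Heparin was thus 2.12-fold below warm, whereas PPS minus warm was -0.50. Tiparp, a further target gene of that receptor, was 0.48 higher on the warm than on the cold array; heparin differed from warm by -0.53 and PPS by -0.80, all within the limit. Cyp1a1 was thus lowest with heparin and Tiparp with PPS. The receptor Ahr itself, its partner Arnt and its repressor Ahrr were below the floor on all 4 arrays. The receptor's part in the Cyp1a1 and Tiparp values was not tested. Cyp1a1 was the only Cyp1 gene of 3 above the floor.

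Gstm7, a mu class transferase, was at 5.63, 6.46, 4.97 and 5.63. The heparin value lay just above the floor and was 2.81-fold below the warm value, and PPS minus warm was -0.83. All 4 mu class genes above the floor had a negative heparin minus warm difference, from -0.0069 for Gstm4 to -1.49 for Gstm7, and that of Gstm4 was 0.02 after quantile normalization. Between them lay Gstm1 (9.13, 8.92, 8.51 and 8.51) and Gstm2 (9.93, 10.31, 9.80 and 9.92). Mu class genes are close copies of each other, among which array probes can be shared.

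**Figure D3:**
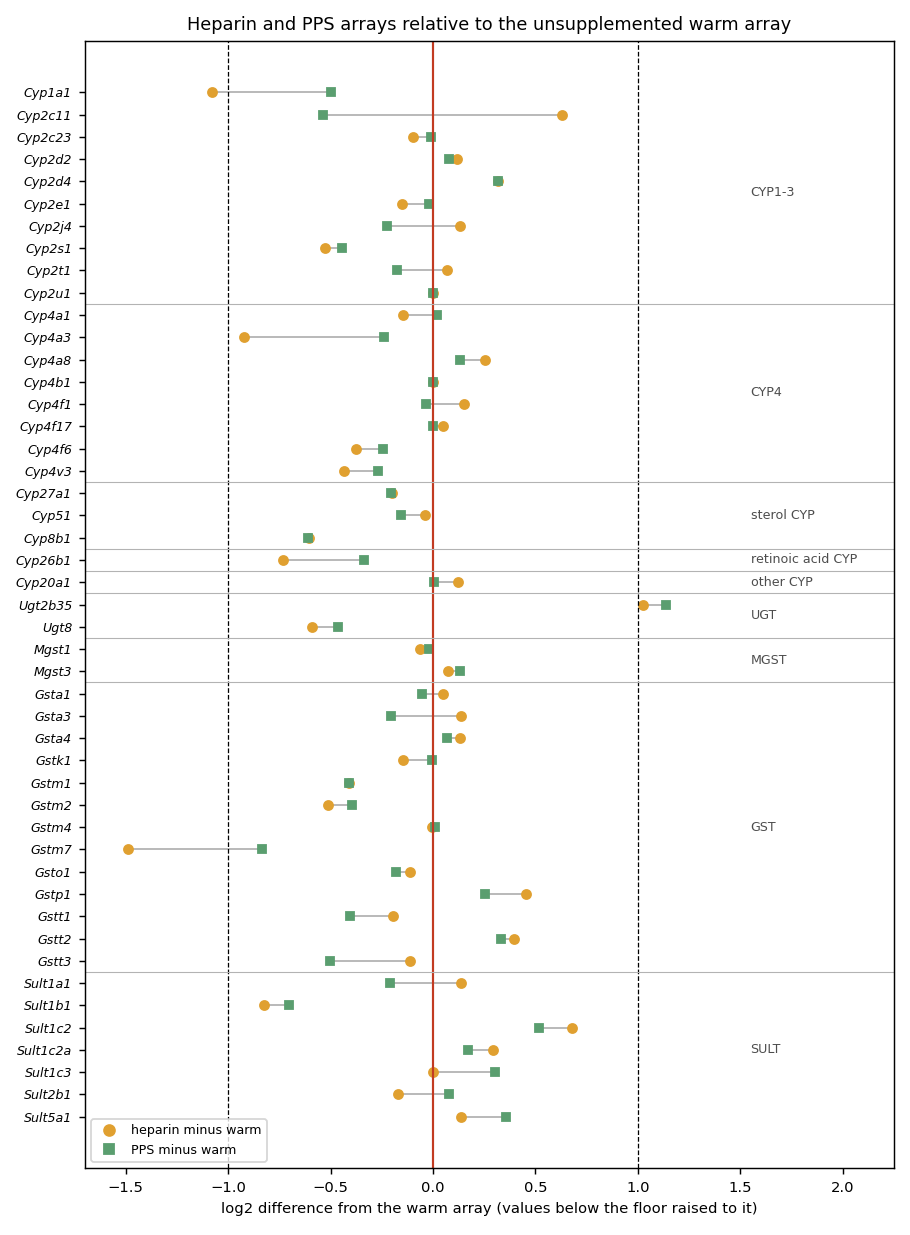
Log2 difference of the heparin (circles) and PPS (squares) arrays from the unsupplemented warm array (x axis) for the 47 enzymes (rows, by enzyme group), with values below the floor raised to it. The red line is the warm array and the dashed lines mark 2-fold; Ugt2b35 is beyond the limit on the right for both supplements, and Cyp1a1 and Gstm7 on the left for heparin.

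Cyp2c11 was the enzyme that differed most between the 2 supplements. This testosterone hydroxylase, best known as the male form of rat liver, was at 11.15, 10.75, 11.38 and 10.21. Heparin was 2.24-fold above PPS, with the warm array between them (0.63 and -0.54 from it). It was 1 of 47 enzymes past the limit in heparin minus PPS, where 0.490% of all genes passed (0.192% higher, 0.298% lower), and 4 enzymes (8.51%) differed by at least 0.5, beside 3.99% of all genes. The median of the enzymes was 0, beside 0.0061 over all genes. Scaled to the poly-A controls the Cyp2c11 difference was 0.97, under the limit. Each of the 6 liver markers was at or below the floor on all 4 arrays. Their sum, a log2 level of 4.76 on every array, adds up such low values and cannot speak on the Cyp2c11 difference.

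The Cyp4a genes, whose products hydroxylate arachidonic acid, differed in their order over the arrays. Cyp4a3 was at 13.21, 13.82, 12.89 and 13.58, with -0.92 in heparin minus warm and -0.68 in heparin minus PPS. Cyp4a8 was at 13.64, 13.69, 13.94 and 13.82, and a further probe set of it had differences of the same sign from cold to warm and from warm to either supplement. Cyp4a1, described above, kept within 0.16 over the 3 warm-perfused arrays. Of the 8 Cyp4 genes above the floor none passed the limit between any pair of arrays as deposited. Cyp4b1 passed it in warm minus cold with a lower floor or none (-1.13). Scaled to the poly-A controls, Cyp4a3 passed it in heparin minus warm. That scaling lowered every warm minus cold difference by 1.19, which took further Cyp4 genes, such as Cyp4a1, past the limit. Cyp4f1, a leukotriene hydroxylase, varied from 12.65 to 12.99, Cyp4f6 from 8.74 to 9.34, Cyp4v3 from 9.40 to 9.84 and Cyp4f17, near the floor, from 5.01 to 5.09. A further probe set of Cyp4v3 held the lowest value of the table on all 4 arrays.

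Among the other P450s, 3 genes of sterol and bile acid metabolism were above the floor, and all 3 differed by less than 2-fold in each comparison. Cyp8b1, which sets the share of cholic acid in bile acids, was close to the floor at 5.04, 5.38, 4.78 and 4.77. The mitochondrial sterol hydroxylase Cyp27a1 ran from 8.09 to 8.30. Cyp2d2 (12.53 to 12.75), Cyp2j4, an epoxygenase (7.40 to 8.01), Cyp2s1 (6.41 to 6.97) and Cyp20a1 (11.04 to 11.23) also stayed within 2-fold over the 4 arrays. Cyp2u1 held the identical value of 6.75 on all 4 arrays, as did 102 of the 9393 genes. Equal values on at least 2 arrays were found for 7 of 47 enzymes and for 11.4% of all genes. Gstm1, Cyp2d4 and Cyp2u1 were equal between heparin and PPS above the floor, as were 380 of the 9393 genes.

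Several glutathione transferases varied little over the 4 arrays. Gsta1 ran from 14.84 to 14.95, and Gsta4, which conjugates hydroxynonenal from oxidised lipids, from 13.39 to 13.52. The omega class enzyme Gsto1 was between 12.69 and 13.00 and the mitochondrial and peroxisomal Gstk1 between 11.18 and 11.33. Gstp1, the pi class enzyme, was at 13.30, 13.10, 13.56 and 13.36, a span within 2-fold. In the theta class, Gstt3 was at 14.08, 14.37, 14.25 and 13.86, Gstt1 at 10.44, 10.32, 10.13 and 9.92, and Gstt2 at 7.83, 7.49, 7.88 and 7.82. A second probe set of Gstt2 was also lowest on the warm array.

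No sulfotransferase passed the limit between any pair of arrays compared. Sult1b1, which sulfates thyroid hormones and phenols, was at 12.25, 12.69, 11.87 and 11.99, with the warm array the highest. Sult1c2 was lowest on the warm array instead, at 13.29, 12.77, 13.45 and 13.29, and its relative Sult1c2a was at 14.66, 14.43, 14.72 and 14.60. Sult1a1, a phenol sulfotransferase, ran from 9.53 to 9.87 and Sult5a1 from 7.29 to 7.65. Sult1c3 was above the floor on the PPS array alone.

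Over the 4 arrays the lowest and highest value of an enzyme lay 0.50 apart in the median on the log2 scale, and 0.29 apart over all genes. The span reached 2-fold for 6 of 47 enzymes (12.8%), namely Cyp26b1, Gsta3, Ugt2b35, Cyp1a1, Gstm7 and Cyp2c11, beside 5.22% of all genes. It stayed under 0.5 for 23 enzymes.

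**Figure D4:**
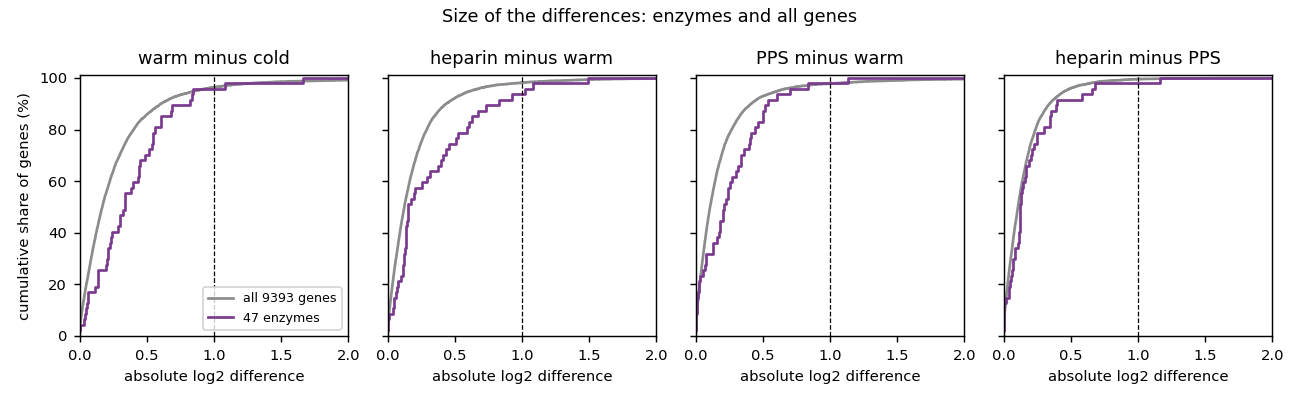
Cumulative share of genes in percent (y axis) by the absolute log2 difference between 2 arrays (x axis, shown up to 2) for the 47 enzymes (purple) and all 9393 genes (grey), with the 2-fold limit dashed. In warm minus cold the median absolute difference was 0.34 for the enzymes and 0.17 for all genes; in heparin minus PPS these were 0.12 and 0.11.

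Genes that serve these enzymes were read from lists of general knowledge. Of 13 cofactor and redox partners above the floor, 1 passed the limit in warm minus cold, where 3.64% of all genes did: glutathione reductase (Gsr), at 9.44 in cold kidneys and at 8.16, 7.82 and 8.02 in the others. Gclc and Gclm, the subunits that make the glutathione precursor, differed by -0.10 and 0.12 in warm minus cold. The P450 reductase Por was at 10.60, 10.27, 10.48 and 10.71, and Ugdh, which makes UDP-glucuronic acid, at 11.71, 11.32, 11.69 and 11.39. None of the 9 receptors and transcription factors above the floor passed the limit in any of the 4 comparisons, including Nfe2l2 (NRF2), Keap1, Hnf4a and the pregnane receptor Nr1i2. The list medians in warm minus cold were -0.06 for the partners and -0.05 for the factors.

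Of 27 other phase I and II enzymes, 1 was higher and 2 lower past the limit in warm minus cold (2.48% and 1.16% of all genes), with a median of -0.10. The quinone reductase Nqo1 was at 6.67, 7.72, 7.41 and 7.42. The monoamine oxidase Maob was at 7.54, 6.43, 6.99 and 6.88. The dipeptidase Dpep1 was at 7.40 on the cold array, below the floor on the warm array, and at 5.88 and 6.09 on the heparin and PPS arrays. With each supplement it was the 1 gene of the list past the limit against warm. Among all genes 1.86% passed with heparin (0.383% higher) and 2.23% with PPS (0.511% higher). The warm value of Dpep1 was raised to the floor, so its differences from warm are lower bounds that share 1 array. None of 7 efflux transporters passed the limit in any of the 4 comparisons, and their medians were -0.25 for warm minus cold, 0.19 for heparin against warm and 0.21 for PPS against warm.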

How the data were processed

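RNA of 4 groups of rat kidneys was measured on 4 Affymetrix arrays, 1 for each group, from 6 ug of pooled RNA. The values deposited by the authors are log2 expression values per probe set. The submitters' processing notes name GCRMA; a version and a genome build are not given in the sources used here. That the values are log2 follows from their range, 2.11 to 16.4. GCRMA gives the arrays nearly the same distribution, so a change of all messenger RNA together is hidden.

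Of 31099 probe sets, 57 are controls, 20832 carry 1 symbol and 436 several; the latter were not used. Symbols were updated through Entrez identifiers (20764 found in RefSeq for GRCr8), and 115 probe sets of 103 genes matched the name rule. The probe set with the highest mean was taken for each of 14217 genes, and values below the floor (50th percentile) were raised to it. One array against another has no test, and limma 3.58.1 in R 4.3.3 (run without the floor) compared the 3 warm-perfused arrays with the cold array. The fit was also run on simulated arrays. These all had the same spread, so that run could not test whether the cold array varies like the others. The number of arrays limits the precision. Pools hide the spread between kidneys.

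The members and lists were chosen with earlier results of these data known. Named genes are those past the limit between any 2 arrays, the 3 most positive and negative in each of the 4 comparisons, the extremes of each enzyme group in warm minus cold, and 11 enzymes named by hand where they were analysed; the other members were added to account for all 47. Python 3.11.15 with pandas 2.3.3 and matplotlib 3.10.9 did the rest. Alternatives changed the floor, the probe set per gene, the scaling, the membership and the arrays in the fit.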

Additional observations from a re-analysis of the deposited data

Results flagged for a closer look

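Cyp2c11 had differences of opposite sign from the warm array with the 2 supplements, 0.63 with heparin and -0.54 with PPS, a log2 difference of 1.16 between heparin and PPS. This difference was not tested, since each group has 1 array.

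Outside the comparisons, 11 probe sets carry several symbols with at least 1 in these enzyme families, and 6 of them were above the floor on all 4 arrays. One of them, annotated to 2 genes, had log2 values of 12.31 in cold, 11.52 in warm, 12.59 in heparin-treated and 12.17 in PPS-treated kidneys, and its heparin minus warm difference of 1.07 passed the 2-fold limit. It cannot be named, because the annotation does not say which of the genes it reads.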

How the results depend on the processing

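Under a lower floor, no floor, median centring, quantile normalization, leaving out the probe set with a shared-sequence suffix and the updated symbols, the counts of enzymes past the limit stayed within 1.5 times in each comparison and the medians within 0.1; Cyp4b1 joined the lower genes in warm minus cold (-1.13) with the lower floor or none. Several of these settings could change little. Updating changed no enzyme's symbol, 1 analysed enzyme had such a suffix, and the array medians were already close (4.50 to 4.54). Averaging all probe sets of a gene left 1 enzyme past the limit in warm minus cold. Scaling to the poly-A controls left 30 (all lower) with a median of -1.23, turned Gsta3 to -0.11, gave PPS minus warm a median of 0.078 and heparin minus PPS one of -0.20 with 0 enzymes past the limit, and moved limma's calls from 0 to 44 of 47 enzymes, beside 9044 of all 9393 genes. By construction that scaling shifts all genes of an array alike (all genes together shifted by -1.19 between cold and warm). Leaving out the warm, heparin or PPS array gave 0 limma calls among enzymes and all genes in each case, with 13, 10 and 10 enzymes at an unadjusted p under 0.05 (27.7%, 21.3% and 21.3%, beside 15.2%, 14.0% and 11.1% of all genes). Over all alternatives, differences of single named genes gained the 2-fold limit 17 times (15 of them with the poly-A scaling) and lost it 5 times. The losses were Cyp26b1 in warm minus cold with averaged probe sets (0.54, a lower bound set by the floor) and 4 with the poly-A scaling. The latter were Cyp26b1 (0.47) and Gsta3 in warm minus cold, Ugt2b35 in heparin minus warm (0.94) and Cyp2c11 in heparin minus PPS (0.97). The sign changed 36 times, 28 of them with the poly-A scaling; of those past the limit before, this was Gsta3 alone. The changes under other settings were Cyp51 in heparin minus PPS with averaged probe sets (0.12 to -0.17) and small differences under median centring or quantile normalization. No paired analysis was possible because each group has 1 array and the labels give no replicate numbers. With 1 array of pooled RNA a group, differences near the limit and values near the floor, such as those of Gstm7, Cyp8b1 and Cyp4b1, are the least certain.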
